A study of Mus musculus with 76 samples.

Results

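The 39 genes described here encode the enzymes that build cholesterol and fatty acids, together with the regulators that set their transcription. They were taken by symbol from a list of such genes and are 39 of the 20295 genes in the normalized-count tables of liver and visceral white adipose tissue (WAT). The list holds 5 regulators, 19 genes of the sterol branch and 15 genes of the fatty acid branch, and every one has an entry in both tables. A gene was tested in a tissue where its normalized counts averaged 10 or more, which kept all 39 in liver and 38 in WAT. *Idi1*, an isomerase of the mevalonate pathway, was left out in WAT, where its mean was 3.82. A normalized count is the number of reads assigned to a gene divided by a size factor for the library.

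The study asked what a T-to-C change in the 3′ untranslated region of *Fnip2* does in mice. FNIP2 is a partner of folliculin in the control of mTORC1. The change was knocked in with CRISPR/Cas9, and the knock-in allele also carries 1 changed base in the PAM of the guide. Female mice of the C57BL/6 strain, homozygous for either allele (*Fnip2*C/C or *Fnip2*T/T), were obtained from heterozygous breeders and had free access to standard chow and drink. Their ages are not given in the sources used here, and neither is the hour of collection. WAT was sequenced from 4 mice with the C allele and 5 with the T allele, and liver from 5 mice of each genotype, with 6 of the 13 mice giving both tissues. The libraries were 3′ end libraries of 4180209 to 6277644 reads in WAT and 5583041 to 7523200 reads in liver.

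Cells make cholesterol from acetyl-CoA through mevalonate, squalene and lanosterol, and fatty acids through malonyl-CoA, fatty acid synthase, elongases and desaturases. Transcription of both sets of enzymes is driven by the sterol regulatory element binding proteins, encoded by *Srebf1* and *Srebf2*. The escort protein SCAP carries these precursors from the endoplasmic reticulum to the Golgi for cleavage when sterols are low, and the INSIG proteins hold them back when sterols are high. SREBP-1c, a product of *Srebf1*, is best known for fatty acid synthesis and SREBP-2 for cholesterol synthesis, while ChREBP, encoded by *Mlxipl*, raises lipogenic genes in response to carbohydrate. Liver and adipose tissue are both sites of fatty acid synthesis, and liver is a main site of cholesterol synthesis.

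RefSeq promoter windows, from 250 bases before to 50 bases after the transcription start on assembly GRCm38.p6, were held for 32 of the 39 genes. Each was searched on both strands for TCACNCCAC, a form of the sterol regulatory element, for CCAAT, the box bound by NF-Y, and for CACGTG, an E-box that carbohydrate response elements and upstream stimulatory factors use. None of these motifs contains another, though neighbouring matches can share bases. TCACNCCAC stood in 2 of the 32 genes (6.25%), *Hmgcs1* and *Mlxipl*, and in 1.44% of all 27025 genes with a window. CCAAT stood in 27 of the 32 (84.4%), in 14 of 15 sterol genes and 9 of 12 fatty acid genes, against 41.1% of all genes. CACGTG stood in 8 of the 32 (25%), against 8.09% of all genes. Windows of 29 bases are shown, with the motif in capitals, for the genes with a sterol regulatory element and for those whose transcripts differed between genotypes in WAT. A capital ATTGG is CCAAT read on the other strand. The submitters' processing notes name GRCm39, so these positions apply to the RefSeq windows alone. No window was held for *Fdft1* or *Fads1*. A match is a description of the letters and not an observation of binding.
Hmgcs1, sterol element, chr13:119690204-119690232, plus strand: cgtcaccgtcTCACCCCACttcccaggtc
Mlxipl, sterol element, chr5:135106745-135106773, plus strand: atcagtggttTCACACCACgctcactggt
Srebf2, CCAAT box, chr15:82147124-82147152, plus strand: tcgcgcgccgATTGGctaatgcaagcctg
Hmgcs1, CCAAT box, chr13:119690296-119690324, plus strand: cccgcctctcATTGGctgaaagcggatcg
Ebp, CCAAT box, chrX:8193549-8193577, minus strand: ccctgtactgATTGGttcgtcagattcga
Acss2, CCAAT box, chr2:155517960-155517988, plus strand: cctacccactATTGGatgcctagagcacg

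Some WAT libraries stood apart in markers of other tissues. The *Fnip2*C/C library of mouse 593 held ovarian transcripts, with a summed normalized count of 25338 over the ovary list against at most 143 elsewhere, and the *Fnip2*T/T library of mouse 609 held skeletal muscle transcripts, with 1835 against at most 257. The brown fat markers *Ucp1* and *Cidea* were highest in mice 658 (1137 and 2224) and 638 (475.5 and 7507). *Fnip2*T/T mice 607 and 658 were highest for the epithelial markers *Krt7* (407 and 403, at most 217 elsewhere) and *Krt18* (286 and 312, at most 145 elsewhere). They were also highest for *Upk1b* of the mesothelium list (191 and 213, at most 41.0 elsewhere), but *Msln*, *Upk3b*, *Lrrn4* and *Wt1* were highest in other mice. The WAT label was borne out by adipocyte markers in every library. Of 10 such markers, 7 passed the test as lower in *Fnip2*C/C (70%, beside 32.1% of all genes). They were *Adipoq*, *Plin1*, *Lep*, *Fabp4*, *Retn*, *Lipe* and *Lpl*. *Cidec*, *Pparg* and *Cfd* were not called (log2 differences −0.19, 0.39 and 0.52). Summed counts over the 10 were 78286 to 249349 in *Fnip2*C/C and 135751 to 223489 in *Fnip2*T/T. *Cfd* alone gave 53287 to 179926 and 47107 to 114349 of these. The endothelial markers *Pecam1*, *Kdr* and *Tie1*, 3 of 4 on their list (75%, beside 32.1% of all genes), were also lower. Among 6 macrophage markers, 3 (50%) were called, *Adgre1* and *Cd68* lower and *C1qa* higher. Among 3 hepatocyte markers tested in WAT, 2 (66.7%) were called, *Alb* and *Cyp2e1*, both lower. Of 9 clock genes tested in WAT, 3 (33.3%, beside 32.1% of all genes) were called, and 0 of 9 were called in liver. In *Fnip2*C/C WAT, *Nr1d1* was higher and *Per1* and *Per2* were lower. *Per2* averaged 2.26 normalized counts in *Fnip2*C/C (0.94 to 5.86) and 22.6 in *Fnip2*T/T WAT. It was tested only because of the *Fnip2*T/T mice, so its call carries no weight. Summed hepatocyte markers in liver lay between 572691 and 763778, and *Adipoq* and *Plin1* had no entry in the liver table. *Fnip2* itself did not pass the test in WAT (log2 difference −0.27, SE 0.35, adjusted p = 0.580) or in liver (0.63, SE 0.23, adjusted p = 1.00). Its normalized counts in liver were 133 to 197 in *Fnip2*C/C and 49.2 to 134 in *Fnip2*T/T mice.

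In WAT, 5 genes of the synthesis pathways were lower and 1 was higher in *Fnip2*C/C than in *Fnip2*T/T animals. The lower ones were *Hmgcs1*, *Fdft1* and *Ebp* of the sterol branch and *Acss2* and *Fads1* of the fatty acid branch, which fell 1.63-fold to 3.53-fold, and the higher one was *Srebf2*, which rose 1.78-fold. Fold changes are on the scale of log2(normalized count + 1), and a gene was called at a Benjamini-Hochberg adjusted p under 0.05 in limma over all tested genes. The 6 genes are 15.8% of the 38, beside 32.1% of all 12798 genes tested in WAT, of which 15.1% were higher and 17% were lower. The share of called genes was thus below that of the tissue as a whole. At an unadjusted limma p under 0.05, 10 of the 38 passed, beside 43.9% of all genes. The log2 differences leaned to one side, with 29 of 38 below 0 and a median of −0.45, beside a median of 0.02 over all genes. No mouse of one genotype reached the range of the other for 4 of the 38 genes, beside 26.1% of all genes. In bulk tissue, fewer cells of a type and less RNA per cell cannot be told apart, and the part of the adipocyte and endothelial markers, of ovary in mouse 593, of muscle in mouse 609 and of the clock genes in these differences was not tested.

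**Figure D1:**
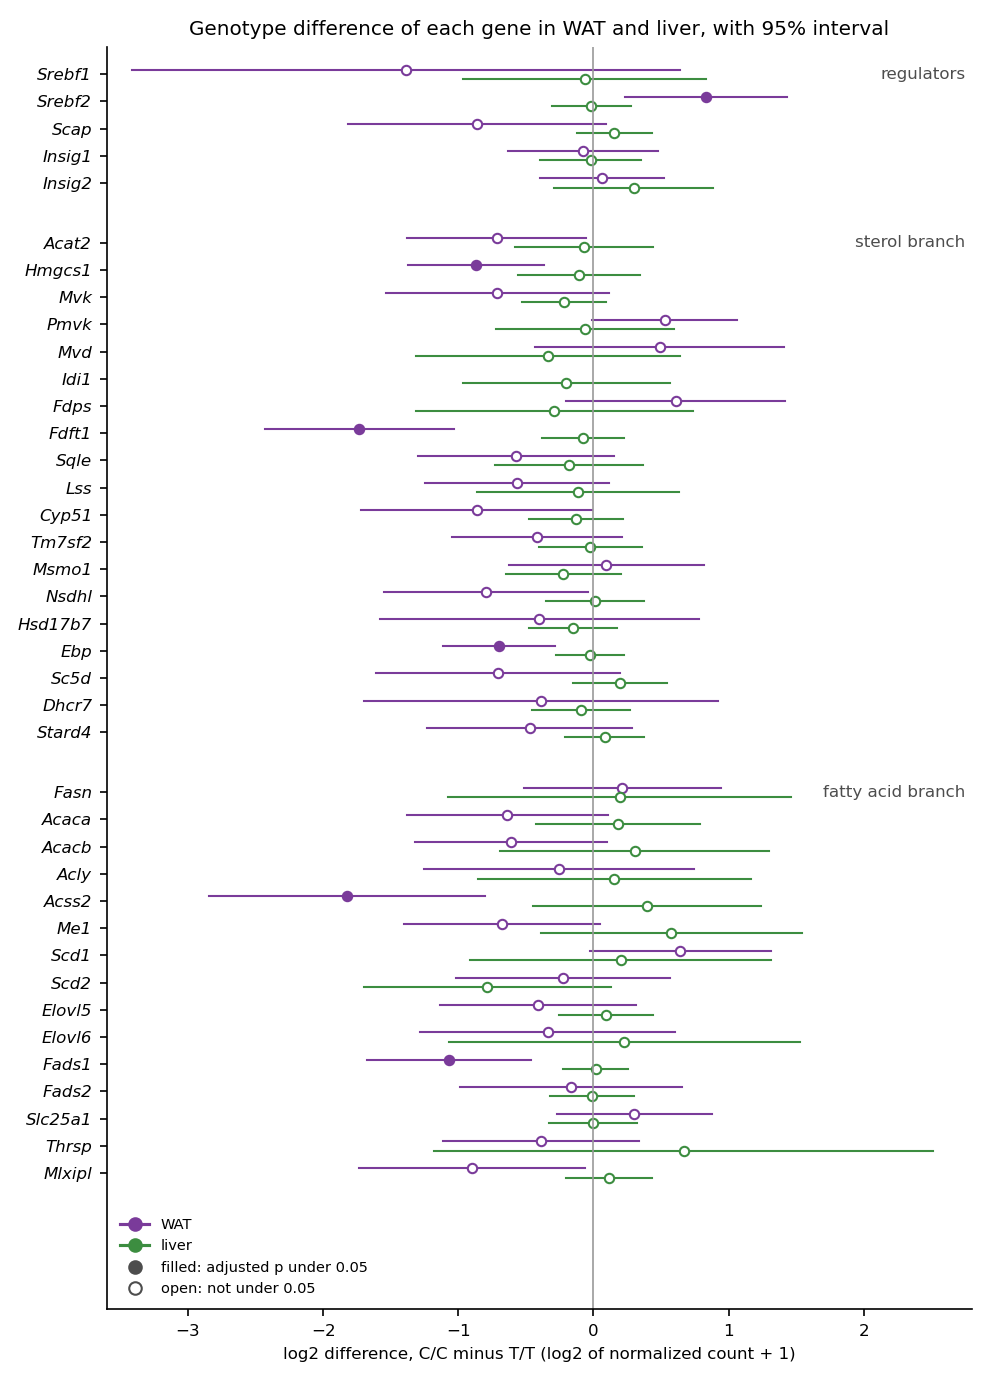
The x axis gives the log2 difference, C/C minus T/T, of each gene on the y axis in WAT and in liver, with its 95% interval, and filled points passed the test. In WAT 29 of 38 points lie left of 0 and 6 are filled, and in liver no point is filled.

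Of the regulators, *Srebf2* was the gene that passed the test in WAT. Its normalized counts were 88.2, 261, 189 and 146 in *Fnip2*C/C mice 590, 593, 599 and 638, and 89.4, 75.9, 108, 71.4 and 105 in *Fnip2*T/T mice 607, 608, 609, 657 and 658. The highest value was in mouse 593, and mouse 590 lay within the *Fnip2*T/T range, so the groups overlapped. The means were 171 ± 72.8 (SD, n = 4) and 90.1 ± 16.7 (SD, n = 5), a log2 difference of 0.83 (SE 0.28, adjusted p = 0.0363). Without mouse 593 the log2 difference was 0.59 (adjusted p = 0.102). The call was also lost without mouse 599, 607, 608, 638 or 657, where the difference stayed between 0.75 and 0.87 and the adjusted p lay between 0.0591 and 0.096.

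*Srebf1* spread widely in WAT. *Fnip2*C/C mice had 21.2, 18.7, 20.6 and 10.5 normalized counts, and *Fnip2*T/T mice had 134, 12.6, 5.58, 103 and 191. *Fnip2*T/T mice 607, 657 and 658 lay above every *Fnip2*C/C mouse, and mice 608 and 609 lay within or below their range. The log2 difference was −1.39 (SE 0.92, 95% interval −3.41 to 0.64, adjusted p = 0.271). It was called without mouse 609 and by count models on the recovered reads, with an adjusted p of 0.0413 in edgeR and 0.0321 in DESeq2. The 3′ end of *Srebf1* overlaps that of *Rai1* on the other strand in GENCODE vM21, and the strand setting of the counting is not given in the sources used here.

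The other regulators did not pass the test in WAT. *Insig1* had 193, 92.7, 113 and 98.4 in *Fnip2*C/C and 87.0 to 158 in *Fnip2*T/T WAT (log2 difference −0.08, SE 0.26), and *Insig2* had 49.2 to 81.3 and 50.02 to 70.6 (0.06, SE 0.21). *Scap* had 82.3, 177, 67.2 and 24.6 in *Fnip2*C/C and 81.5 to 171 in *Fnip2*T/T WAT, a log2 difference of −0.86 (SE 0.44, adjusted p = 0.15). Mouse 593 was the highest of all for *Scap* and mouse 638 the lowest, and the difference was −1.30 without mouse 593 (adjusted p = 0.0208), −0.37 without mouse 638 (adjusted p = 0.436) and −0.60 in DESeq2 (adjusted p = 0.281). *Mlxipl* had 557, 218, 358 and 207 against 509, 403, 319, 868 and 1109, with a log2 difference of −0.90 (SE 0.38, adjusted p = 0.0910), and the groups overlapped. It was called in DESeq2 (adjusted p = 0.0480) and without mouse 590 or 609.

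In the sterol branch, 3 of 18 tested genes were called in WAT (16.7%, beside 32.1% of all genes). All 3 were lower in *Fnip2*C/C, beside 17% of all genes called lower. The log2 differences ran from −1.73 to 0.61, and 14 of 18 were below 0. Their median was −0.57, beside 0.02 over all genes. The called genes act at separate steps, the condensation that makes HMG-CoA, the joining of farnesyl units into squalene and the isomerisation of a late sterol.

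*Fdft1*, squalene synthase, makes the first product that is committed to sterols. It had 83.5, 40.2, 43.4 and 18.7 normalized counts in *Fnip2*C/C and 144, 135, 122, 158 and 134 in *Fnip2*T/T WAT. Every *Fnip2*C/C mouse lay below every *Fnip2*T/T mouse. The means were 46.5 ± 27.0 (SD, n = 4) and 138 ± 13.3 (SD, n = 5), a log2 difference of −1.73 (SE 0.32, 95% interval −2.43 to −1.03, adjusted p = 0.00239) or 3.32-fold. The last 300 bases of *Fdft1* lie opposite *Ctsb* in GENCODE vM21. *Ctsb* had 4591 to 6950 normalized counts in WAT with a log2 difference of 0.17 (adjusted p = 0.547), and whether reads of the 2 genes were kept apart by strand is not given in the sources used here.

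*Hmgcs1*, cytosolic HMG-CoA synthase, stands at the entry to the mevalonate pathway and carries both motifs shown above. It had 402, 510.0, 352 and 279 in *Fnip2*C/C and 487, 689.8, 1035, 704 and 634 in *Fnip2*T/T WAT. Only mouse 593 of the *Fnip2*C/C group exceeded a *Fnip2*T/T mouse, number 607. The means were 386 ± 97.1 (SD, n = 4) and 709.8 ± 201 (SD, n = 5), with a log2 difference of −0.87 (SE 0.23, adjusted p = 0.0136), 1.83-fold. *Ebp*, the emopamil binding protein, is the sterol isomerase late in the pathway. It had 195, 134, 184 and 126 against 222, 238, 251, 248 and 333, with no overlap. The means were 160.0 ± 34.8 (SD, n = 4) and 259 ± 43.0 (SD, n = 5), a log2 difference of −0.70 (SE 0.19, adjusted p = 0.0152), 1.63-fold. *Fdft1*, *Hmgcs1* and *Ebp* were called under all 20 settings tried in WAT.

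The other 15 sterol genes did not pass the test. *Mvk*, *Cyp51*, *Nsdhl*, *Sc5d* and *Acat2* had log2 differences of −0.71, −0.86, −0.79, −0.70 and −0.72, and *Fdps*, *Pmvk* and *Mvd* had 0.61, 0.53 and 0.49. The 3′ end of *Cyp51*, lanosterol demethylase, overlaps *Akap9* on the other strand. *Akap9* was itself higher in *Fnip2*C/C WAT (0.53, adjusted p = 0.0344). The 3′ end of *Fdps* matches 5 pseudogenes and is shared, over 300 bases of the same strand, with the protein-coding *Gm43738*. *Hsd17b7*, a sterol reductase that also makes oestradiol in the ovary, had 35.3, 245, 44.4 and 22.3 in *Fnip2*C/C and 44.3 to 91.5 in *Fnip2*T/T WAT. The value of 245 was that of mouse 593, which held the ovarian transcripts. With that mouse the log2 difference was −0.40 (adjusted p = 0.596), and without it −1.12 (adjusted p = 0.0177). *Sqle*, squalene epoxidase, was likewise called only without mouse 593 or without mice 593 and 609 (−0.57 with all, −0.90 and adjusted p = 0.0376 without mouse 593).

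In the fatty acid branch, 2 of 15 genes were called in WAT (13.3%, beside 32.1% of all genes). Both were lower in *Fnip2*C/C, beside 17% of all genes called lower. The log2 differences ran from −1.82 to 0.64, and 12 of 15 were below 0. Their median was −0.39, beside 0.02 over all genes. *Acss2*, which makes cytosolic acetyl-CoA from acetate, had 948, 433, 899 and 160.5 normalized counts in *Fnip2*C/C and 1393, 1572, 1144, 2112 and 3072 in *Fnip2*T/T WAT. No value of one group reached the other. The means were 610.1 ± 379 (SD, n = 4) and 1859 ± 766 (SD, n = 5), a log2 difference of −1.82 (SE 0.47, adjusted p = 0.0124) or 3.53-fold. An antisense gene, *Acss2os*, covers part of its 3′ end.

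*Fads1*, the delta-5 desaturase of polyunsaturated fatty acid synthesis, had 294, 247, 204 and 90.2 in *Fnip2*C/C and 434, 399.9, 342, 442 and 401 in *Fnip2*T/T WAT. The groups did not overlap. Mouse 638 was the lowest, as it was for *Acss2*, *Fdft1*, *Hmgcs1* and *Ebp*, the other genes called lower. The means were 209 ± 87.2 (SD, n = 4) and 404 ± 39.7 (SD, n = 5), a log2 difference of −1.07 (SE 0.28, adjusted p = 0.0127) or 2.10-fold. *Acss2* and *Fads1* were called under all 20 settings tried in WAT.

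The core enzymes of lipogenesis did not pass the test. *Fasn*, fatty acid synthase, lay between 48104 and 120915 normalized counts in *Fnip2*C/C and between 49065 and 98394 in *Fnip2*T/T WAT (log2 difference 0.21, adjusted p = 0.653). *Scd1*, the main stearoyl-CoA desaturase of fat, lay between 119084 and 237662 and between 83739 and 139801 (0.64, SE 0.31, adjusted p = 0.128). It was called in 5 of 20 settings, among them DESeq2 (0.67, adjusted p = 0.0193) and without mouse 593 (0.86, adjusted p = 0.0457). *Acaca*, *Acacb*, *Acly*, *Me1* and *Elovl6* had log2 differences of −0.64, −0.61, −0.25, −0.68 and −0.34, and *Acacb* was called without mouse 590.

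**Figure D2:**
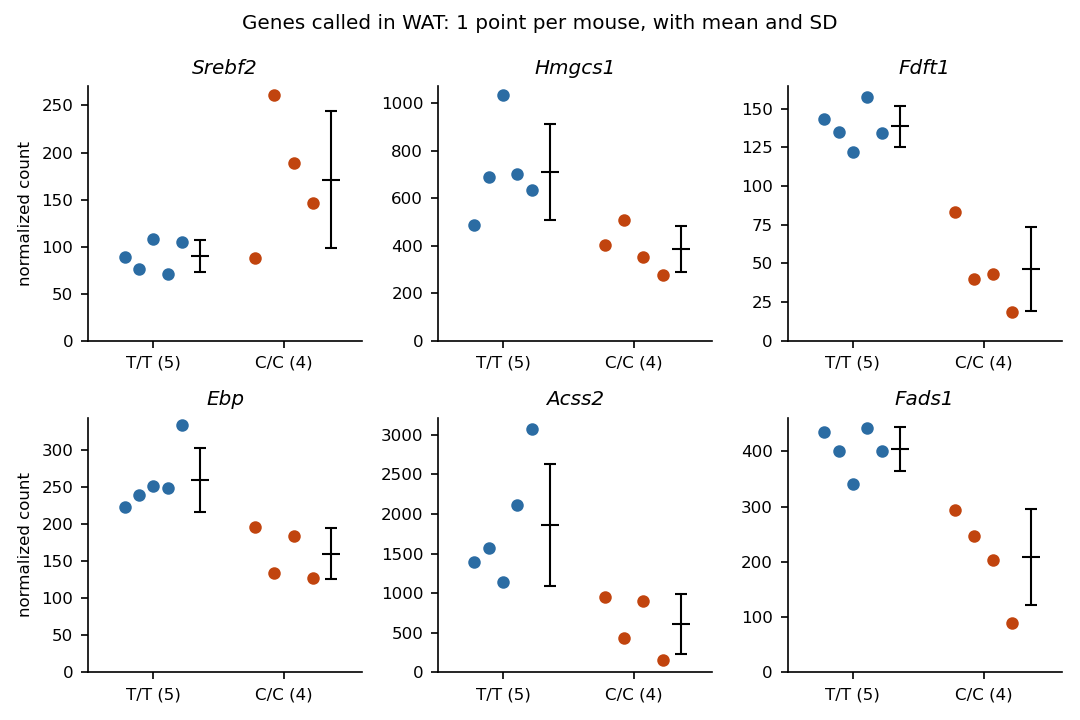
Normalized counts on the y axis of the 6 called genes in WAT, 1 point per mouse, with the mean and SD of 5 T/T and 4 C/C mice on the x axis. Fdft1, Ebp, Acss2 and Fads1 do not overlap between genotypes, Hmgcs1 overlaps through mouse 593 and Srebf2 through mouse 590.

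The WAT values of the pathway varied more between mice of a genotype than those of most genes. The SD within genotype, on the log2 scale, had a median of 0.60 over the 38 genes beside 0.41 over all genes, and 33 of the 38 lay above the latter. The *Fnip2*C/C library of mouse 638 was the lowest of all 9 for 13 of 18 sterol genes and 10 of 15 fatty acid genes, with median deviations from the gene means of −1.0 and −1.12. The *Fnip2*T/T library of mouse 658 was the highest for 10 of 15 fatty acid genes, with a median deviation of 0.96. Both were the libraries with the highest *Ucp1*, and mouse 658 was also high for *Krt7* and *Krt18*. The part of these markers in the values was not tested. Without mouse 638 the medians of the log2 differences were −0.29 in the sterol branch and −0.20 in the fatty acid branch.

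Other genes of the same pathways, 41 on a list kept apart from the 39, gave 12 calls among 36 tested in WAT (33.3%), close to the 32.1% of all genes, with a median log2 difference of −0.32. *Abca1*, a cholesterol exporter, *Npc2*, a lysosomal sterol carrier, and *Scd3*, a desaturase, were higher (0.61, 0.80 and 1.61). The list also held 9 lower genes. *Idh1*, cytosolic isocitrate dehydrogenase, had 64.4 to 150 normalized counts in *Fnip2*C/C and 246 to 1221 in *Fnip2*T/T WAT (−2.38, SE 0.42, adjusted p = 0.00205). *G6pdx*, the entry to the pentose phosphate pathway, had 108 to 350.1 against 489 to 903 (−1.59, SE 0.32, adjusted p = 0.00336). *Pgd* and *Taldo1* of the same pathway had −1.0 and −1.23, while *Tkt* of that pathway had 0.42 (adjusted p = 0.337) and was not called. The remaining lower genes included *Hacd1* (−2.0) and *Fads3* (−1.67) of fatty acid elongation and desaturation. The regulators *Nr1h2* (−1.71), a liver X receptor, and *Mid1ip1* (−1.78), an activator of acetyl-CoA carboxylase, were also lower. *Oxsm* of mitochondrial fatty acid synthesis, counted among the 12, had −2.06. Its mean was 6.04 in *Fnip2*C/C (1.18 to 14.0) and 23.7 in *Fnip2*T/T. It reached the mean of 10 through the *Fnip2*T/T mice, and its call is not used as support. In liver, 0 of 38 tested genes of that list were called by limma.

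In liver, none of the 39 genes passed the test, beside 0% of all 11710 genes tested. At an unadjusted limma p under 0.05 there were 0 of the 39 genes and 231 of all genes, and edgeR and DESeq2 called 0 genes, with 269 and 225 at an unadjusted p under 0.05. The genotypes overlapped for all 39 genes, beside 0.248% of all genes that did not overlap. The median log2 difference was −0.11 in the sterol branch, with 16 of 19 genes below 0, and 0.18 in the fatty acid branch, with 12 of 15 above 0, beside 0.01 over all genes. Without *Fnip2*T/T mouse 607 the sterol median was −0.003, and without *Fnip2*C/C mouse 639 the fatty acid median was −0.05.

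The regulators were not called in liver either. *Srebf1* had 224, 377, 291, 291 and 289 normalized counts in *Fnip2*C/C mice 590, 591, 592, 638 and 639, and 408, 266, 107, 460.1 and 484 in *Fnip2*T/T mice 607, 608, 657, 658 and 659. The *Fnip2*T/T values enclosed the *Fnip2*C/C ones, and the log2 difference was −0.07 (SE 0.40). The differences were −0.02 (SE 0.14) for *Srebf2*, 0.15 (SE 0.13) for *Scap*, −0.02 (SE 0.18) for *Insig1*, 0.30 (SE 0.27) for *Insig2* and 0.11 (SE 0.15) for *Mlxipl*. For genes called in WAT, the 95% intervals in liver ran from −0.38 to 0.22 for *Fdft1*, −0.27 to 0.22 for *Ebp*, −0.22 to 0.25 for *Fads1*, −0.56 to 0.34 for *Hmgcs1*, −0.45 to 1.24 for *Acss2* and −0.31 to 0.28 for *Srebf2*.

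Among sterol genes, those with the lowest p in liver were *Mvk*, *Sc5d* and *Msmo1*. *Mvk*, mevalonate kinase, had 330.1, 255, 350.1, 234 and 247 in *Fnip2*C/C and 387, 320.2, 245, 338 and 355 in *Fnip2*T/T liver (log2 difference −0.22, SE 0.15). *Sc5d* and *Msmo1*, late enzymes of the pathway, had 0.20 (SE 0.17) and −0.22 (SE 0.20). The adjusted p was 1.00 for each. Among fatty acid genes these were *Scd2*, *Me1* and *Acss2*, also with adjusted p of 1.00. *Scd2* lay between 10.3 and 27.5 in 9 livers and at 107 in *Fnip2*T/T mouse 659 (−0.78, SE 0.43). *Me1*, malic enzyme, had 406, 481, 371, 371 and 1002 against 713, 387, 205, 351 and 183 (0.58, SE 0.42), and *Acss2* had 1389, 1563, 2392, 1614 and 3562 against 2851, 1183, 775, 1699.8 and 1708 (0.39, SE 0.37).

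The fatty acid genes varied widely between livers of the same genotype. The SD within genotype had a median of 0.70 over the 15 genes, beside 0.34 over the 19 sterol genes and 0.29 over all genes, and 9 of the 15 lay above the 90th percentile of all genes, 0.55. *Fasn* had 5077, 4465, 7009, 4201 and 19967 in *Fnip2*C/C and 16009, 3576, 3766, 5439.8 and 5794 in *Fnip2*T/T liver. *Thrsp*, the lipogenic protein Spot 14, had 1427, 2613, 1301, 1695 and 7698 against 7436, 612, 594, 1874 and 1231. One liver of each genotype, mouse 639 in *Fnip2*C/C and mouse 607 in *Fnip2*T/T, was far above the others for both genes. Over the 15 genes, mouse 639 was the highest of all livers for 9 and mouse 607 for 3, with median deviations of 1.06 and 0.73, and mouse 657 was below the mean for all 15. *Dbp*, a clock gene, had 96.2 in mouse 607 and 140.3 in *Fnip2*C/C mouse 591, beside 1.86 to 19.8 in the other livers.

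The livers at the ends were partly shared with the sterol genes. Mouse 607 was above the mean for all 19 sterol genes and the highest for 11, with a median deviation of 0.50. *Fnip2*C/C mouse 638 was below the mean for all 19 and the lowest for 11, with a median deviation of −0.48, and mouse 657 was also below the mean for all 19 (−0.30). Mouse 639, the highest for fatty acid genes, had a median deviation of 0.09 over the sterol genes. Mouse 638 had also been the lowest WAT library for 13 of 18 sterol genes. *Fads1* varied little between livers, from 2879 to 3604 in *Fnip2*C/C and from 3112 to 3663 in *Fnip2*T/T (0.01, SE 0.11).

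**Figure D3:**
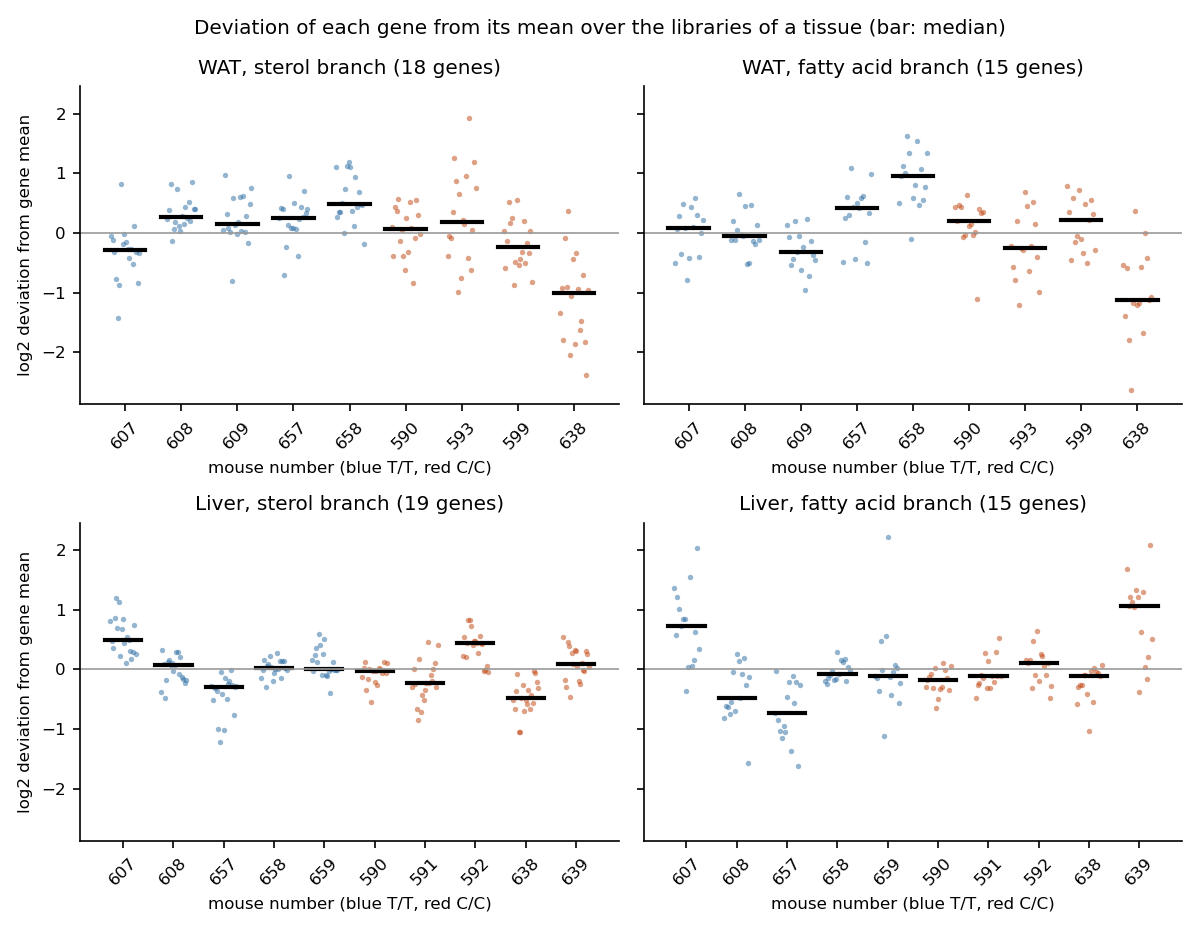
The y axis gives the log2 deviation of each gene from its mean over the libraries of a tissue, by mouse on the x axis, for each branch and tissue, with the median as a bar. Mouse 638 is lowest in WAT in both branches (medians −1.0 and −1.12), and mice 639 and 607 are highest for liver fatty acid genes (1.06 and 0.73).

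Whether the genotype difference itself differed between tissues was tested with the interaction of genotype and tissue. It was called for 5 of 38 genes (13.2%), beside 29.2% of the 10404 genes tested in both tissues. The genotype difference in WAT minus that in liver was −1.65 (SE 0.36, adjusted p = 0.00195) for *Fdft1*, −2.22 (SE 0.64, adjusted p = 0.0158) for *Acss2*, −1.08 (SE 0.30, adjusted p = 0.0110) for *Fads1* and −0.67 (SE 0.21, adjusted p = 0.0215) for *Ebp*. These genes were lower in *Fnip2*C/C WAT, and their liver differences were −0.08, 0.39, 0.01 and −0.03. *Srebf2* had 0.85 (SE 0.31, adjusted p = 0.0439) and was lost with mouse as a replicate block, and it was called in 8 of 23 settings tried. *Ebp* was lost without mouse 638 or 657, with a difference that stayed between −0.78 and −0.57 over all single omissions. *Hmgcs1*, called in WAT, had −0.76 (SE 0.33, adjusted p = 0.0909), so its difference between tissues was not shown. Restricted to the 6 mice that gave both tissues, 2 *Fnip2*C/C and 4 *Fnip2*T/T, 0 of the 38 genes were called with the block, while the differences were −1.60 for *Fdft1*, −2.36 for *Acss2*, −1.42 for *Fads1*, −0.71 for *Ebp* and 0.56 for *Srebf2*, with adjusted p from 0.0602 to 0.326.

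The branches were laid out by tissue as well as by genotype. In RPM, the reads of a gene scaled to a common total of each library, which sets the tables side by side as a description with no test, all livers lay above all WAT libraries for 16 of 38 genes (42.1%), beside 8.62% of all genes, and all WAT libraries lay above all livers for 8 (21.1%), beside 36.3% of all genes. The former held 11 sterol genes, *Scap*, *Insig2*, *Elovl5*, *Fads1* and *Fads2*. The latter were all of the fatty acid branch, *Fasn*, *Acaca*, *Acly*, *Me1*, *Scd1*, *Scd2*, *Slc25a1* and *Thrsp*. *Ebp* had a median of 51.6 RPM in WAT and 424 in liver, and *Hmgcs1* 118 and 546. *Fads2*, the delta-6 desaturase, had 12.5 and 221. *Fasn* had 14073 in WAT and 786 in liver, and *Scd2*, a desaturase isoform low in adult liver, 221 and 2.65. *Fads1* and *Fads2*, which make polyunsaturated fatty acids, thus lay on the same side as these sterol genes.

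**Figure D4:**
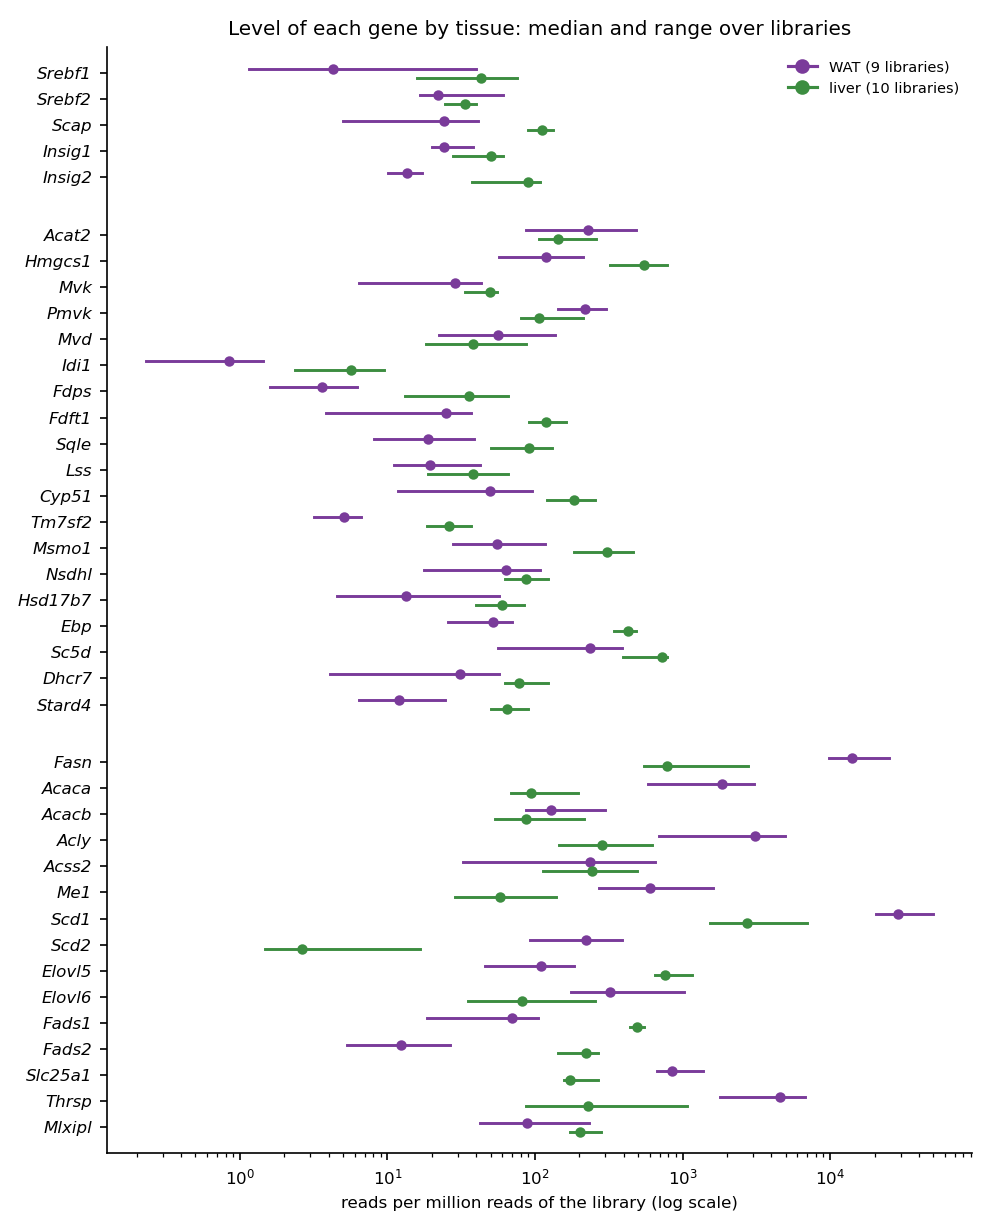
RPM on a log x axis for each gene on the y axis, with the median and range over 9 WAT and 10 liver libraries. The ranges do not touch for 16 genes higher in liver and 8 higher in WAT among the 38 genes tested in both.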

How the data were processed

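QuantSeq 3′ mRNA-Seq FWD libraries were made from 250 ng of liver RNA or 500 ng of WAT RNA and give stranded reads of the 3′ ends of polyadenylated RNA. Each of the 19 libraries was sequenced in 4 runs. The submitters' processing notes name FastQC 0.11.9, HISAT2, SAMtools 1.12, HTSeq, DESeq2 and GRCm39. For each tissue the authors deposited a table, normalized on its own, whose signal values are gene read counts divided by a size factor per library. 1 WAT column with no label was left out. Every value was a whole multiple of 1 read of its library within 1e-06, so whole reads could be recovered. They count reads and not molecules, and no 2 libraries agreed within counting noise.

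Groups follow the genotype in the labels. Genes with a mean of at least 10 were tested on log2(normalized count + 1) with limma 3.58.1 (trend and robust) in R 4.3.3, separately by tissue and, for the interaction, over genes in both tables, with Benjamini-Hochberg adjustment over all genes tested. The scripts were tested on simulated data. Mice count as replicates, and littermates are not given in the labels. edgeR 4.0.16 (quasi-likelihood) and DESeq2 1.42.0 on the recovered reads, other pseudocounts, filters and scalings, library weights, a term for mouse numbers under 610 or over 630, a replicate block for mouse and leaving out each mouse were alternatives. The same mouse gave both tissues in 6 cases by its number in the labels, and the consensus correlation of its libraries was −0.114.

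The genes given with values were those called in WAT or in the interaction, the 3 of each branch with the lowest p in liver, *Srebf1*, *Srebf2*, *Scap*, *Insig1*, *Insig2* and *Mlxipl*, and values far from their group. A few others (*Fasn*, *Scd1* and *Thrsp* among them) were named after their values were seen. Members and lists were chosen with earlier results of these data known. 3′ ends (300 bases, GENCODE vM21) were compared with blastn 2.17.0 at 95% identity over at least 100 bases, and 11 of the 39 genes matched or overlapped another gene (*Acaca*, *Acat2*, *Acss2*, *Cyp51*, *Elovl6*, *Fdft1*, *Fdps*, *Idi1*, *Lss*, *Scap* and *Srebf1*), whose counts are therefore uncertain.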

Additional observations from a re-analysis of the deposited data

Results flagged for a closer look

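Values that stood far from the others of their genotype and tissue were looked for in 156 groups of 4 or 5 mice, by the gap to the nearest mouse as a share of the whole range, and 28 were found. For independent groups of normally distributed values, chance gives about 1 in 20. The groups here share the same mice across genes, so that rate is not a baseline for the 28. They were spread over 10 groups of WAT and 18 of liver, and liver mice 607 and 639 and WAT mouse 658 held most of them.

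In WAT, *Fnip2*T/T mouse 658 was far above the others for *Acat2* (gap 0.815 of the range, 2318 against 1049 to 1283 normalized counts), *Sqle* (0.839, 183 against 73.9 to 91.5), *Lss* (0.946, 202 against 86.0 to 92.2), *Ebp* (0.739, 333 against 222 to 251), *Acaca* (0.762, 14473 against 7114 to 8865) and *Slc25a1* (0.723, 6510 against 3133 to 4067). *Fnip2*T/T mouse 607 was far below the others for *Dhcr7* (0.837, 59.9 against 137 to 152). Among *Fnip2*C/C mice, 593 was far above for *Hsd17b7* (0.900, 245 against 22.3 to 44.4) and *Tm7sf2* (0.843, 23.4 against 15.2 to 16.5), and 599 for *Lss* (0.831, 128 against 51.5 to 64.4).

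In liver, *Fnip2*C/C mouse 639 was far above the others for *Fasn* (0.822, 19967 against 4201 to 7009), *Acaca* (0.791, 1414 against 555 to 734), *Acacb* (0.809, 1526 against 553 to 738), *Acly* (0.900, 4443 against 1640 to 1920), *Me1* (0.826, 1002 against 371 to 481), *Elovl6* (0.723, 1522 against 426 to 729) and *Thrsp* (0.795, 7698 against 1301 to 2613). *Fnip2*T/T mouse 607 was far above for *Fasn* (0.822, 16009 against 3576 to 5794), *Acacb* (0.80, 1530 against 366 to 598), *Elovl6* (0.713, 1820 against 240 to 693), *Slc25a1* (0.752, 1908 against 1032 to 1249), *Thrsp* (0.813, 7436 against 594 to 1874), *Mvd* (0.799, 612 against 206 to 288) and *Dhcr7* (0.754, 874 against 424 to 535). *Fnip2*T/T mouse 657 was far below for *Insig1* (0.838, 190.2 against 362 to 396) and *Fads2* (0.811, 968 against 1506 to 1632), *Fnip2*T/T mouse 659 far above for *Scd2* (0.872, 107 against 15.9 to 27.5), and *Fnip2*C/C mouse 591 far below for *Fads1* (0.729, 2879 against 3407 to 3604).

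A genotype difference that differed between tissues by the interaction test in limma was found for *Srebf2* (0.848 on the log2 scale, WAT minus liver), *Fdft1* (−1.65), *Ebp* (−0.675), *Acss2* (−2.22) and *Fads1* (−1.08).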

How the results depend on the processing

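Of the summary values, 142 stayed on their side of the threshold and within 1.5 times or the spread, and 4 did not. The number of interaction calls among the 38 genes was 5, and became 8 at an adjusted p threshold of 0.1, 0 in the mice with both tissues with the replicate block, and 3 to 8 with single mice left out, 8 without mouse 593 and 3 without mouse 638. With mouse as a replicate block over all libraries it was 4. WAT calls numbered 6, and 5 to 9 with single mice left out, 7 in edgeR, 9 in DESeq2, 8 with quantile normalization, 9 with library weights and 9 without mice 593 and 609, an alternative chosen after seeing the data. *Srebf2* was called in 12 of 20 WAT settings, with an adjusted p of up to 0.102, and the cause was not tested. Liver gave 0 calls throughout.

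Among single genes, 896 values kept direction and side of the threshold, 14 passed it anew, 29 fell short and 54 changed sign. In WAT, *Hsd17b7* became 0.20 in edgeR and 0.22 in DESeq2, *Insig1* 0.05 with library weights and 0.0796 without mice 593 and 609, *Insig2* −0.0135 with libraries scaled to the same total, and in liver *Slc25a1* 0.033 with library weights. With single mice left out, WAT ranges that crossed 0 were −0.86 to 0.33 for *Dhcr7*, −1.12 to 0.0166 for *Hsd17b7*, −0.31 to 0.041 for *Insig1* and −0.0585 to 0.18 for *Insig2*. Liver ranges were −0.0625 to 0.35 for *Acaca*, −0.11 to 0.43 for *Acly*, −0.18 to 0.0777 for *Dhcr7*, −0.0937 to 0.0162 for *Ebp*, −0.0843 to 0.6448 for *Elovl6*, −0.0107 to 0.0703 for *Fads1*, −0.15 to 0.037 for *Fads2*, −0.20 to 0.56 for *Fasn*, −0.19 to 0.019 for *Fdft1*, −0.22 to 0.0453 for *Insig1*, −0.0027 to 0.21 for *Mlxipl*, −0.0649 to 0.16 for *Slc25a1*, −0.44 to 0.10 for *Srebf1* and −0.11 to 0.0609 for *Srebf2*. None of these genes was called in the main test except *Ebp*, *Fads1*, *Fdft1* and *Srebf2*, whose calls were in WAT. With 4 or 5 mice a group small differences could not be resolved.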
